A study of Mus musculus with 22 samples.

Results

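The genes described here are 50 ligands, receptors, extracellular antagonists, signal transducers and targets of the BMP, activin and TGF-beta pathways, out of 30102 genes named on the arrays. They were chosen by name, from a list drawn up with earlier results of these data known, and each was read from a probe set annotated to that gene alone. A single such probe set was found for 49 of the 50. Gdf15 had none and is not analysed here. Of the 49, 47 passed the filter on dim probe sets. Gdf10, a BMP-related ligand, lay above the array median on 3 of the 22 arrays, and Grem1, which encodes the secreted BMP antagonist gremlin, on 0, so neither was tested.

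RNA came from the epithelium of the urogenital sinus (UGS), the fetal endoderm that gives rise to prostatic buds in males, of C57BL/6J mice at E16.75. The knockout genotype was ShhCre/+; Sox9fl/fl, with Cre inserted at 1 copy of Shh and both copies of Sox9 floxed. The control genotype of littermates was Shh+/+; Sox9+/fl, so controls lacked Cre but still had a single floxed copy of Sox9. There were 6 male knockouts, 6 male controls, 5 female knockouts and 5 female controls, and each array measured 1 sample. Cre was driven from the Shh locus, which is active in this epithelium, so all knockouts and no controls had an altered Shh allele, and Sox9 deletion and that allele cannot be told apart. The labels call the samples biological replicates without saying whether each held a single fetus or a pool, so p-values measure the spread between these samples.

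Ligands of this superfamily bind pairs of type I and type II serine/threonine kinase receptors. BMP receptors phosphorylate SMAD1, SMAD5 and SMAD9, and activin and TGF-beta receptors phosphorylate SMAD2 and SMAD3. Both sets of SMADs enter the nucleus with SMAD4, and the Id genes are textbook targets of the BMP branch. Secreted proteins such as noggin, chordin and follistatin hold ligands away from their receptors, while SMAD6, SMAD7 and BAMBI restrain signalling inside or at the surface of the cell. In the prostate, BMP4 and noggin are known for opposing effects on budding from the UGS.

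The promoters of Id2 and Id3 are shown because both genes were higher in males than in females in each genotype. The sequences are the 250 bases before the RefSeq start on build GRCm38.p6, written 5′ to 3′ on the strand of the gene. Id2 lies on the minus strand at chr12:25096093-25096342, and Id3 on the plus strand at chr4:136143572-136143821. Capitals mark GGCGCC, a motif bound by BMP-activated SMADs, and CAGAC or its reverse complement GTCTG, the general SMAD motif.
Id2: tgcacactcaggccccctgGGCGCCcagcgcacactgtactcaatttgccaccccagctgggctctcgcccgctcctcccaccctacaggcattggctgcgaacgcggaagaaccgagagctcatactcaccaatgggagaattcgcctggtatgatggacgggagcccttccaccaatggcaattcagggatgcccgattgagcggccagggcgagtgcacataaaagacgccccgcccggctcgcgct
Id3: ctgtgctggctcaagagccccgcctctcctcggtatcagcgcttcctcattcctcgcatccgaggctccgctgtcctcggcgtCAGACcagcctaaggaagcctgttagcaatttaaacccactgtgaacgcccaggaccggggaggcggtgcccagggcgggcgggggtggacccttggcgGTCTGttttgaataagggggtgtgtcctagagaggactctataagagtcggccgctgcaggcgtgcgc
The Id2 window held GGCGCC once, beginning 231 bases before the start, and the Id3 window held CAGAC 167 bases and its complement 68 bases before the start. The SOX core ACAAT (complement ATTGT) was searched as well and was in neither window, and no matches overlapped in these 2 windows. Across 32851 windows of the same length, 9.6% held GGCGCC, 42.2% held CAGAC and 27.7% held ACAAT on either strand. Among the 43 windows of the 36 genes of the list that had one, the counts were 9, 22 and 8.

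Log2 values spanned 1.59 to 14.23, the medians of the arrays 5.10 to 5.27, and a set of 23 background probe sets had a median of 3.19. Sox9, the deleted gene, was lower in knockouts by 1.07 log2 units in males (exact permutation p = 0.00216) and by 1.00 in females (exact permutation p = 0.00794), the smallest two-sided values these group sizes allow. Its signal in knockouts still averaged 8.26 in males and 7.89 in females, against 9.33 and 8.89 in controls, well above the array medians. Shh, which carries the Cre insertion, was also called lower in knockouts, with log2 fold changes of -0.45 in males and -0.56 in females. The mean of 11 epithelial markers lay between 11.16 and 11.30 on every array. The mean of 12 mesenchymal markers spanned 5.94 to 6.38 in male knockouts, 5.98 to 7.00 in male controls, 6.09 to 6.22 in female knockouts and 6.12 to 6.29 in female controls. Single markers differed between the sexes, where 7.19% of all 19050 genes tested were called in knockouts and 6.94% in controls. Of the 11 epithelial markers, 4 were called in knockouts, with Grhl2 (0.18) and Foxa1 (0.22) higher and Krt8 (-0.21) and Krt18 (-0.34) lower in males, and 1 in controls, Krt18 (-0.28). Of the 9 mesenchymal markers that passed the filter, 1 was called in knockouts (Lum, higher in males) and 1 in controls (Dcn, lower in males). Each ran against most of the list. In knockouts 6 of the 9 were lower in males (median log2 fold change -0.01), and in controls 7 were higher (median 0.08). Of 7 urothelial markers, Psca was called in both, at 0.93 in knockouts and 0.82 in controls. It was the only one of the 7 higher in males in knockouts, where 6 were lower (median -0.19). In controls 3 were higher and 4 lower (median -0.02). All 7 tested immune markers were lower in males in knockouts (median -0.15), and 0 of them were called. In controls 5 of these immune markers were higher and 2 lower. The part of these markers in the sex differences was not tested.

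Male control 6 stood apart from its group. Its mesenchymal mean was 7.00 against 5.98 to 6.21 in the other male controls, its smooth muscle mean (11 genes) 7.06 against 6.05 to 6.22, and its endothelial mean (7 genes) 5.61 against 4.82 to 5.03. Its mean of 6 Wolffian and Mullerian duct markers was lower, at 5.75 against 5.97 to 6.59 in the other male controls. Of the 49 genes measured, 13 were higher and 8 lower on it than on every other male control. For each gene some array must be the highest and another the lowest. These counts were not made over all genes, so they do not by themselves set the array apart. Several results below are given with and without it. In RNA from bulk tissue, fewer cells of a type and less RNA per cell cannot be told apart.

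Most of the genes of this pathway that were called differed between the sexes. In knockouts, 15 of the 47 tested genes (31.9%) differed between the sexes at an adjusted p under 0.05, 6 higher and 9 lower in males, where 7.19% of the 19050 genes tested were called, 3.66% higher and 3.52% lower. In controls, 15 of 47 were again called, 7 higher and 8 lower in males, where 6.94% of all genes were called, 3.27% higher and 3.67% lower. The fold changes of these comparisons share no arrays. Their calls are not independent, because the variance of each gene was estimated over the arrays of all groups together. Called in both were 11 genes, or 73.3% of each list: Bmp2, Bmp4, Bmpr1b, Tgfbr3, Id2 and Id3, all higher in males, and Bambi, Fst, Bmp6, Acvr1 and Smad5, all lower in males. Each of the 19 genes called in either comparison had the same sign in both, as did 36 of the 47 tested. The same overlap and signs were not counted over all genes, so whether they are particular to this list cannot be said. Arrays of the sexes did not overlap for 11 genes in knockouts and for 12 in controls, against 5.82% and 5.64% of all genes. The median log2 fold change of the 47 genes was -0.08 in knockouts and -0.09 in controls, and that of all genes -0.01 in both. With each array centred on its median, 9 genes were called in knockouts, 5 of them higher in males, or 55.6% against 40% on the values as deposited. In controls 11 were then called, 6 of them higher in males, or 54.5% against 46.7%. The share of all genes called with that setting is not given here, so the fall cannot be read as particular to this list.

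**Figure D1:**
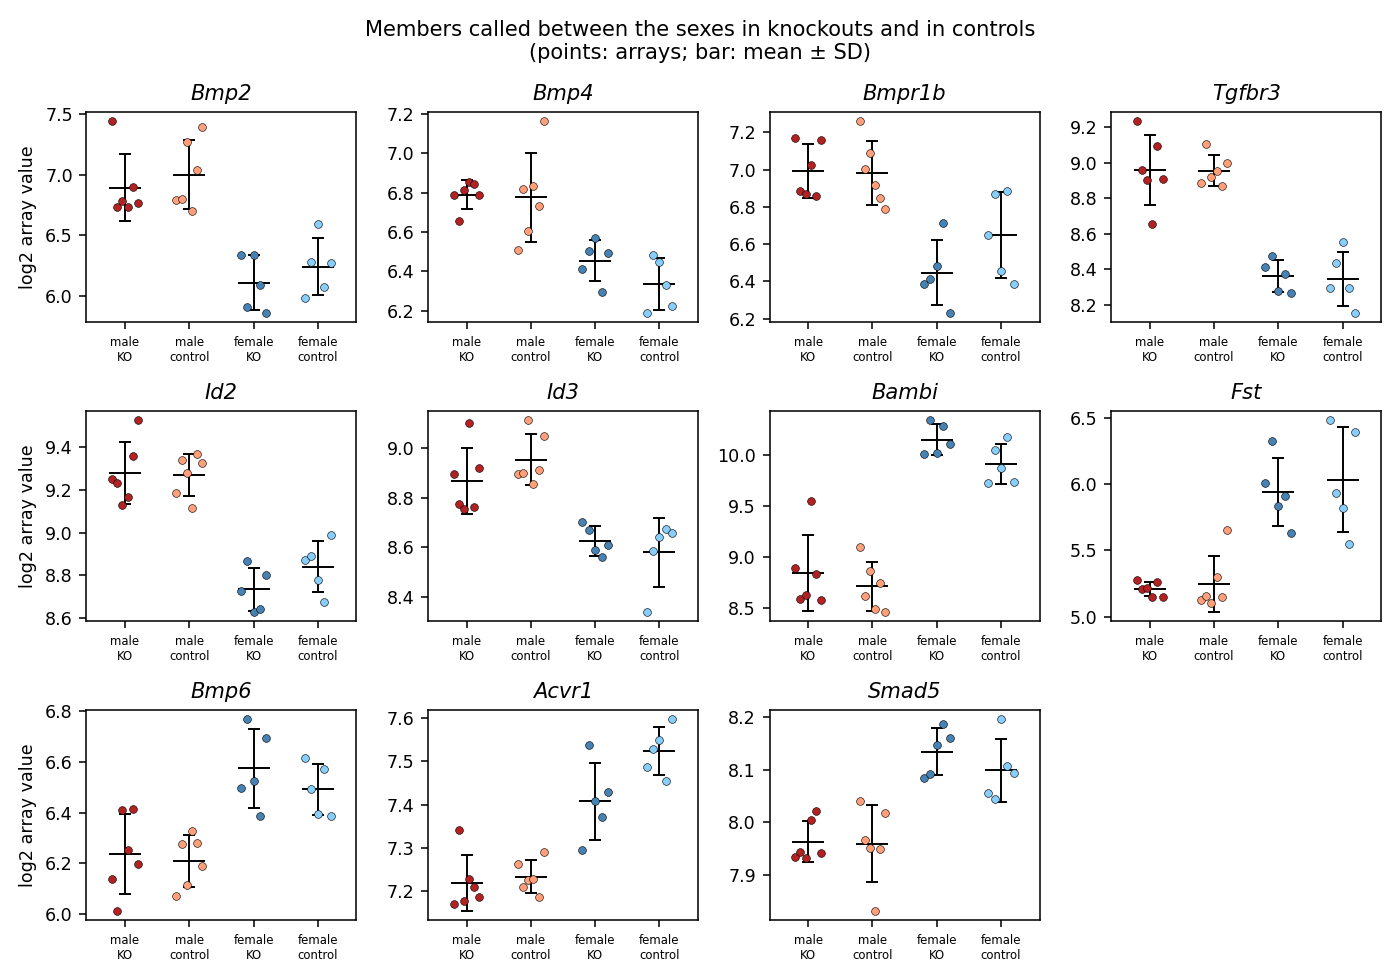
Log2 values of each array for the 11 genes called between males and females in both genotypes, by group, with group mean and SD. Bmp2, Bmp4, Bmpr1b, Tgfbr3, Id2 and Id3 sit higher in males, and Bambi, Fst, Bmp6, Acvr1 and Smad5 lower, in knockouts and in controls.

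Among the BMP ligands, Bmp2 and Bmp4 were higher and Bmp6 lower in males. Bmp2 encodes a ligand closely related to BMP4. It read 6.73 to 7.44 (median 6.78) in the 6 male knockouts, against 6.34, 5.91, 6.34, 6.09 and 5.86 in the female knockouts. In controls it read 6.70 to 7.40 (median 6.92) in males, against 5.98, 6.28, 6.59, 6.07 and 6.28 in females. Every male array exceeded every female array of its genotype. The log2 fold change was 0.78 in knockouts (SE 0.14, adjusted p = 0.000795), a 1.72-fold difference, and 0.76 in controls (SE 0.14, adjusted p = 0.00122). Male control 6 gave the highest control value, and without it the change in controls was 0.68 (adjusted p = 0.00372).

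Bmp4, whose product is known as an inhibitor of prostatic budding, read 6.66 to 6.86 (median 6.80) in male knockouts, against 6.41, 6.50, 6.57, 6.30 and 6.49 in female knockouts. Male controls read 6.51 to 7.16 (median 6.78), against 6.19, 6.49, 6.45, 6.33 and 6.22 in female controls. The sexes did not overlap in either genotype. The change was 0.33 in knockouts (SE 0.09, adjusted p = 0.0149) and 0.44 in controls (SE 0.09, adjusted p = 0.00145), or 0.36 in controls without male control 6 (adjusted p = 0.00181). Without female knockout 4 the change in knockouts was 0.29 and was not called (adjusted p = 0.0532).

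Bmp6, a ligand close to BMP5 and BMP7, ran the other way. It read 6.01 to 6.42 (median 6.22) in male knockouts, against 6.50, 6.77, 6.53, 6.39 and 6.70 in female knockouts, and 1 female array fell within the male range. In controls it read 6.07 to 6.33 (median 6.23) in males, against 6.61, 6.49, 6.39, 6.57 and 6.39 in females, without overlap. The change was -0.34 in knockouts (SE 0.08, adjusted p = 0.00628) and -0.28 in controls (SE 0.08, adjusted p = 0.0264). The call in controls was lost without male control 1 or 3 or female control 1, 2 or 4, with changes of -0.28 to -0.25 and adjusted p of 0.0551 to 0.0862. It was also lost with quantile normalization (-0.25, adjusted p = 0.0601) and with median-centred arrays (-0.24, adjusted p = 0.0775).

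Bmp3 encodes an unusual member of the family that is known to oppose other BMPs through the activin type II receptors. It was lower in male than in female controls, with 7.08 to 7.23 (median 7.15) in males against 7.49, 7.47, 7.66, 7.55 and 7.57 in females. The change was -0.40 (SE 0.09, adjusted p = 0.00679), and the sexes did not overlap. In knockouts the sexes did overlap, with 7.32 to 7.97 (median 7.69) in males against 7.78, 7.81, 8.18, 8.09 and 7.75 in females, and a change of -0.26 that was not called (adjusted p = 0.0969). It was called in knockouts without male knockout 4 (-0.32, adjusted p = 0.0198) and with array weights (-0.33, adjusted p = 0.0231).

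The other tested ligands of this branch, Bmp5, Bmp7, Bmp8a and Gdf11, were not called between the sexes. Bmp7, which encodes a ligand expressed in the prostatic rudiment, had the smallest p of them. It averaged 8.77 ± 0.13 in male knockouts and 8.48 ± 0.23 in female knockouts, a change of 0.29 (unadjusted p = 0.0332, adjusted p = 0.228). In controls it averaged 8.65 ± 0.32 in males and 8.47 ± 0.18 in females (SD, n = 6 and 5), and ± stands for the SD over these arrays throughout.

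No activin or inhibin subunit was called in any comparison. Inhba and Inhbb encode the activin beta subunits, which pair with the inhibin alpha subunit of Inha to give inhibins. Inhbb had the smallest p of them, between the control sexes. It read 5.76 to 6.10 (median 5.85) in male controls, against 6.12, 6.09, 6.05, 6.06 and 5.99 in female controls, and the sexes overlapped. The change was -0.15 (SE 0.08, adjusted p = 0.276), and in knockouts 0.04 (SE 0.08, adjusted p = 0.891). Inhba passed the filter through 8 arrays, 2 in each group, and its log2 value was between 4.71 and 5.38, near the array medians.

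Of the TGF-beta ligands and their latency proteins, Tgfb2 and Ltbp3 were each called once. Tgfb2, which encodes a TGF-beta that needs betaglycan for efficient receptor binding, read 7.98 to 8.34 (median 8.19) in male controls, against 7.67, 8.09, 7.96, 7.93 and 7.58 in female controls. The sexes overlapped at 1 female array. The change was 0.33 (SE 0.09, adjusted p = 0.0262), and it was lost without male control 1 or 3 or female control 1 or 5 (0.27 to 0.31, adjusted p of 0.0592 to 0.0988). It was also lost in a fit of the control arrays alone (adjusted p = 0.0517) and with array weights (0.26, adjusted p = 0.0729). Male knockouts read 7.82 to 8.28 (median 7.97), against 7.92, 7.81, 7.67, 8.00 and 7.97 in female knockouts, a change of 0.12 (adjusted p = 0.589).

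Ltbp3, whose product tethers latent TGF-beta in the matrix, read 7.89 to 8.23 (median 8.00) in male knockouts, against 8.41, 8.29, 8.14, 8.33 and 8.21 in female knockouts. Only male knockout 1 lay within the female range. The change was -0.25 (SE 0.07, adjusted p = 0.0288), and in controls it was -0.23 (SE 0.07, adjusted p = 0.0549). Male controls read 8.06 to 8.32 (median 8.11), against 8.50, 8.33, 8.29, 8.17 and 8.53 in female controls. The knockout call was lost without male knockout 2, 4 or 5 or female knockout 1, 2 or 4 (-0.25 to -0.22, adjusted p of 0.054 to 0.0928), and the control change was called without male control 3, male knockout 1 or female control 4 (-0.28 to -0.23, adjusted p of 0.0199 to 0.0373). Median centring ended the knockout call (adjusted p = 0.06), and the 75th percentile filter (adjusted p = 0.0396) and the trend and robust options (adjusted p = 0.0473) each gave a control call.

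Tgfb3 depended on male control 6, which read 8.64 where the other male controls read 7.14 to 7.38. Female controls read 7.89, 7.97, 8.01, 7.46 and 7.49, all above those other male controls. With all arrays the change between the control sexes was -0.30 (SE 0.19, adjusted p = 0.429), and without male control 6 it was -0.53 and was called (adjusted p = 0.00325). Fstl1 was the only other gene of the list whose call in this comparison changed without that array, and 17 genes were then called. Tgfb3 in knockouts read 6.93 to 7.46 (median 7.16) in males, against 7.33, 7.56, 7.61, 7.49 and 7.53 in females, a change of -0.30 that was not called (adjusted p = 0.501). Male control 6 enters that test through the shared variance, and without it the same change had an adjusted p of 0.1. The mesenchymal, smooth muscle and endothelial markers were high on that same array, and their part in the Tgfb3 value was not tested. Tgfb1 and Ltbp1 were not called between the sexes, with changes of -0.07 to 0.12.

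**Figure D2:**
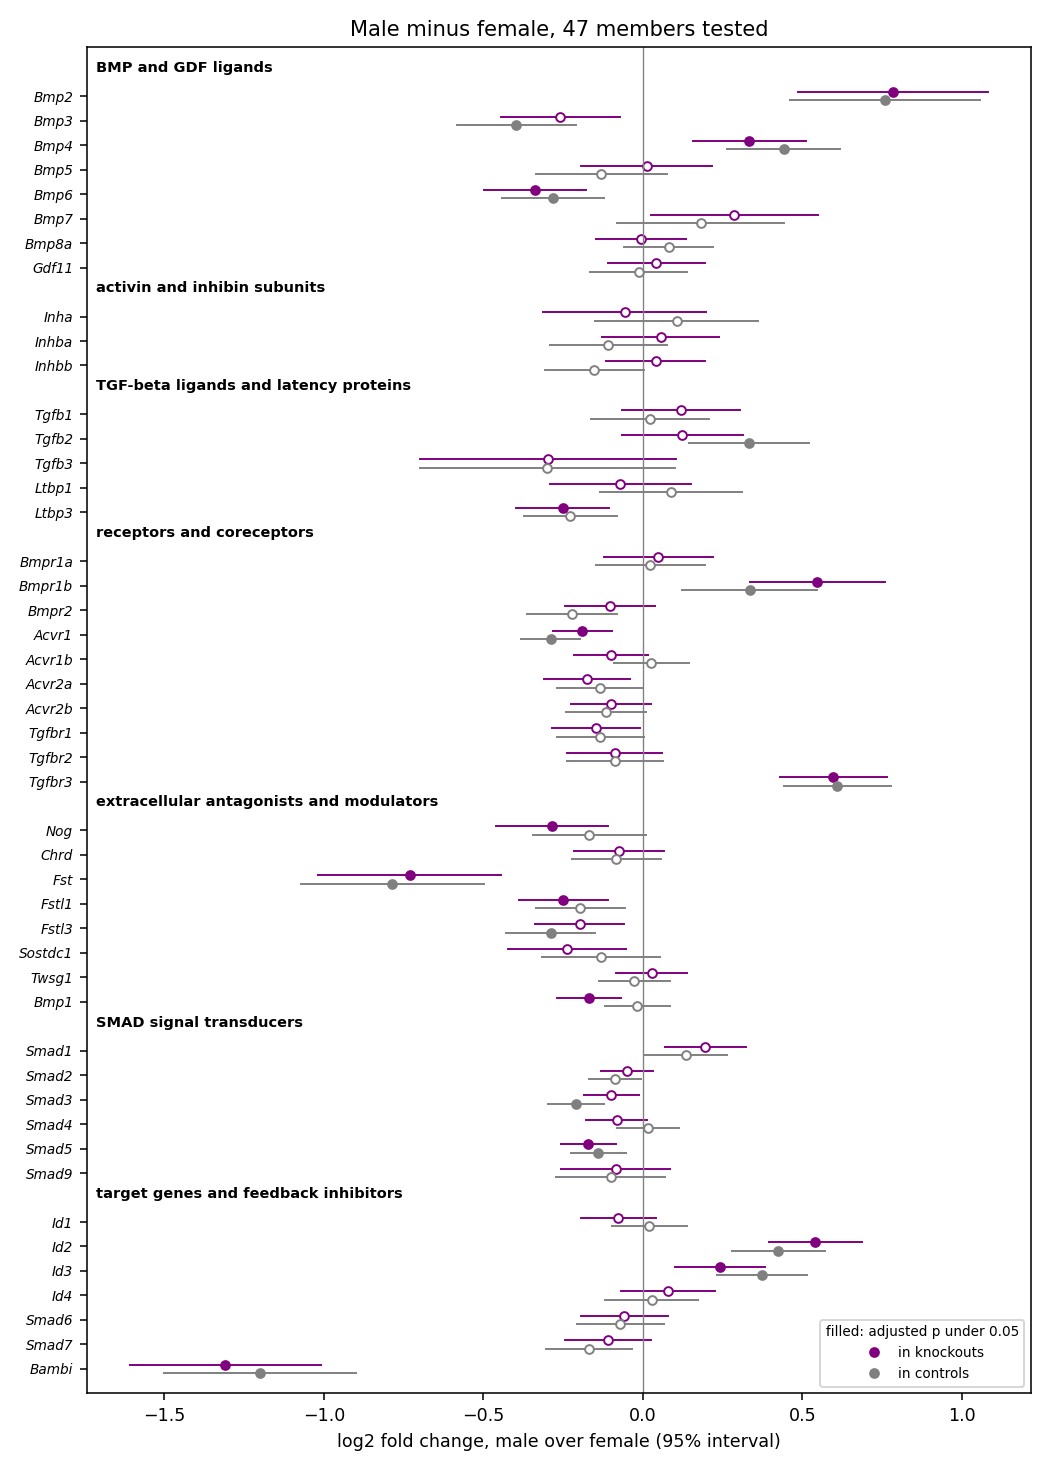
Male over female log2 fold changes with 95% intervals for the 47 tested genes, in knockouts (purple) and in controls (grey), grouped by role, with filled points where the adjusted p was under 0.05. Bambi at -1.31 and -1.20 and Bmp2 at 0.78 and 0.76 lie at the ends, and most intervals of a gene overlap between genotypes.

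Among the receptors, Tgfbr3 and Bmpr1b were higher and Acvr1 lower in males. Tgfbr3 encodes betaglycan, a coreceptor that presents TGF-beta and inhibin. It read 8.66 to 9.23 (median 8.94) in male knockouts, against 8.41, 8.48, 8.28, 8.38 and 8.27 in female knockouts. In controls it read 8.87 to 9.10 (median 8.94) in males, against 8.30, 8.43, 8.55, 8.29 and 8.16 in females. All male arrays lay above all female arrays, with changes of 0.60 in knockouts (SE 0.08, adjusted p = 2.34e-05) and 0.61 in controls (SE 0.08, adjusted p = 2.17e-05), or 1.51-fold and 1.53-fold. Neither call was lost under any of 31 alternatives.

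Bmpr1b encodes a type I receptor for BMPs and GDFs. It read 6.86 to 7.17 (median 6.95) in male knockouts, against 6.39, 6.41, 6.48, 6.71 and 6.23 in female knockouts, without overlap. Male controls read 6.79 to 7.26 (median 6.96), against 6.65, 6.87, 6.45, 6.89 and 6.38 in female controls, and here the sexes overlapped. The change was 0.55 in knockouts (SE 0.10, adjusted p = 0.000985) and 0.33 in controls (SE 0.10, adjusted p = 0.0496). The control call stood near the threshold and was lost under 19 of 31 alternatives (0.27 to 0.37, adjusted p of 0.051 to 0.165), among them quantile normalization, median centring, no filter, a fit of the control arrays alone and array weights. The other 14 left out 1 array: male control 1, 2 or 3, male knockout 2, 3, 4, 5 or 6, female control 1, 3 or 5, or female knockout 1, 2 or 3.

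Acvr1 encodes the type I receptor ALK2, which relays BMP6 and BMP7 signals. It read 7.17 to 7.34 (median 7.20) in male knockouts, against 7.29, 7.54, 7.41, 7.37 and 7.43 in female knockouts, with overlap. Male controls read 7.19 to 7.29 (median 7.23), all below the 7.49, 7.53, 7.55, 7.45 and 7.60 of female controls. The change was -0.19 in knockouts (SE 0.04, adjusted p = 0.00794) and -0.29 in controls (SE 0.04, adjusted p = 0.000137). The control change exceeded the spread within each sex, while in knockouts it was smaller than the range of the female arrays.

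The remaining 7 receptors, Bmpr1a, Bmpr2, Acvr1b, Acvr2a, Acvr2b, Tgfbr1 and Tgfbr2, were not called between the sexes. Bmpr2, the type II receptor of BMPs, came closest, at 10.82 ± 0.12 in male controls and 11.04 ± 0.03 in female controls (-0.22, adjusted p = 0.0516). It was called without male control 1 or 5, male knockout 6 or female knockout 1 or 5 (-0.25 to -0.22, adjusted p of 0.0176 to 0.0495), and also with the 75th percentile filter, the trend and robust options, a fit of the control arrays alone or array weights (adjusted p of 0.0224 to 0.0448). Acvr2a, an activin type II receptor, had a change of -0.17 in knockouts (adjusted p = 0.131) and Tgfbr1, the TGF-beta type I receptor, one of -0.15 (adjusted p = 0.246).

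All called antagonists and modulators were lower in males. Fst encodes follistatin, which binds activins and, less tightly, several BMPs. It read 5.15 to 5.28 (median 5.21) in male knockouts, against 6.01, 6.32, 5.83, 5.91 and 5.63 in female knockouts. Male controls read 5.10 to 5.66 (median 5.15), against 6.48, 5.93, 5.82, 5.55 and 6.39 in female controls. Female arrays were all above their array median, as were 3 of 6 male knockouts and 4 of 6 male controls, so male values lay near the filter. The change was -0.73 in knockouts (SE 0.14, adjusted p = 0.0011) and -0.79 in controls (SE 0.14, adjusted p = 0.000548). The single overlap in controls came from male control 6 at 5.66, and without it the change was -0.87 (adjusted p = 0.000193).

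Nog, which encodes the BMP antagonist noggin, was called in knockouts. It read 5.48 to 5.80 (median 5.60) in male knockouts, against 5.99, 6.10, 5.85, 5.80 and 5.82 in female knockouts, so that the ranges met at their edge. The change was -0.29 (SE 0.09, adjusted p = 0.042). In controls it read 5.50 to 5.90 (median 5.70) in males, against 5.61, 5.80, 5.98, 5.86 and 6.00 in females, with overlap and a change of -0.17 (adjusted p = 0.29). The knockout call was lost under 15 of 30 alternatives, 9 of them leaving out 1 array (-0.30 to -0.24, adjusted p of 0.0502 to 0.144): male control 5, male knockout 3, 4 or 6, female control 2 or 4, or female knockout 1, 2 or 3. The other settings included both scalings, no filter, a fit of the knockout arrays alone and array weights.

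Fstl1 and Fstl3 encode follistatin-related proteins. Fstl1 read 9.88 to 10.07 (median 9.92) in male knockouts, against 10.08, 10.31, 10.16, 10.19 and 10.23 in female knockouts, without overlap (-0.25, SE 0.07, adjusted p = 0.0218). It read 9.79 to 10.26 (median 9.96) in male controls, against 10.23, 10.10, 10.09, 10.17 and 10.34 in female controls (-0.20, adjusted p = 0.0863). The control change was called without male control 6 (-0.25, adjusted p = 0.0108), and the knockout call was lost without female knockout 2 or 5 (-0.24 to -0.22, adjusted p of 0.0529 to 0.0776). Median centring also ended the knockout call (adjusted p = 0.0697), and array weights gave a control call (adjusted p = 0.0288).

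Fstl3 read 6.74 to 7.19 (median 6.86) in male controls, against 7.16, 7.21, 7.12, 7.28 and 7.16 in female controls, a change of -0.29 (SE 0.07, adjusted p = 0.00787). Only male control 4 reached the female range. Male knockouts read 6.83 to 7.07 (median 6.94), against 7.11, 7.34, 7.07, 7.12 and 7.13 in female knockouts, a change of -0.20 (adjusted p = 0.0841). That change was called without male control 4 (adjusted p = 0.022).

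Bmp1, a metalloprotease that cleaves the antagonist chordin and matrix proteins, read 8.48 to 8.59 (median 8.54) in male knockouts, against 8.73, 8.79, 8.61, 8.68 and 8.72 in female knockouts. The sexes did not overlap in knockouts (-0.17, SE 0.05, adjusted p = 0.035). They did in controls, with 8.57 to 8.85 (median 8.63) in males against 8.71, 8.64, 8.61, 8.65 and 8.77 in females, a change of -0.02 (adjusted p = 0.887). The 8.85 was male control 6, and without it the control change was -0.05 (adjusted p = 0.574). The knockout call was lost without any 1 of male knockouts 2 to 6 or female knockouts 1, 2, 4 or 5 (-0.17 to -0.15, adjusted p of 0.0505 to 0.114). It was also lost with median-centred arrays (adjusted p = 0.164) and with no filter on dim probe sets (adjusted p = 0.0545). Chrd (chordin), Twsg1, which encodes a chordin partner, and Sostdc1, which encodes a secreted BMP and Wnt inhibitor, were not called, with changes of -0.24 to 0.03. Sostdc1 was called in knockouts without male knockout 4 (-0.30, adjusted p = 0.0277).

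Among the SMADs, Smad5, a BMP-branch transducer, was lower in males. It read 7.93 to 8.02 (median 7.94) in male knockouts, against 8.08, 8.09, 8.15, 8.19 and 8.16 in female knockouts. Male controls read 7.83 to 8.04 (median 7.96), against 8.06, 8.04, 8.20, 8.11 and 8.09 in female controls. The sexes did not overlap in either genotype, and the change was -0.17 in knockouts (SE 0.04, adjusted p = 0.0105) and -0.14 in controls (SE 0.04, adjusted p = 0.0433). With median-centred arrays neither was called (adjusted p = 0.208 in knockouts and 0.448 in controls). The control call was lost under 18 of 31 alternatives, 13 of them leaving out 1 array (-0.15 to -0.11): male control 2, 3, 4 or 5, male knockout 2, 3 or 6, female control 1, 3, 4 or 5, or female knockout 3 or 5. No filter, the trend and robust options and a fit of the control arrays alone ended it as well (adjusted p of 0.0507 to 0.149).

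Smad3, a transducer of activin and TGF-beta, read 8.52 to 8.63 (median 8.57) in male controls, against 8.72, 8.85, 8.78, 8.84 and 8.72 in female controls. The sexes did not overlap (-0.21, SE 0.04, adjusted p = 0.00206), and the call was lost when arrays were centred on their median (-0.17, adjusted p = 0.0859). In knockouts it read 8.58 to 8.72 (median 8.64) in males, against 8.74, 8.69, 8.69, 8.81 and 8.80 in females (-0.10, adjusted p = 0.2). Smad1, the other BMP-branch SMAD with a small p, had a change of 0.20 in knockouts (adjusted p = 0.0555) and 0.14 in controls (adjusted p = 0.228). It was called in knockouts without male knockout 3, female control 5 or female knockout 2 (0.20 to 0.25, adjusted p of 0.00687 to 0.0479), with the 75th percentile filter (adjusted p = 0.0399) and with array weights (adjusted p = 0.0134). Smad2, Smad4 and Smad9 were not called, with changes of -0.10 to 0.02.

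The targets and feedback inhibitors held the largest difference of the list. Bambi encodes a membrane pseudoreceptor that resembles type I receptors but has no kinase domain. It read 8.58 to 9.55 (median 8.73) in male knockouts, against 10.01, 10.35, 10.02, 10.29 and 10.11 in female knockouts. In controls it read 8.46 to 9.10 (median 8.68) in males, against 9.73, 10.05, 9.87, 10.18 and 9.74 in females. Every female array was above every male array. The change was -1.31 in knockouts (SE 0.14, adjusted p = 1.46e-06), a 2.48-fold lower level in males, and -1.20 in controls (SE 0.14, adjusted p = 5.75e-06), 2.30-fold lower.

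Id2 and Id3, the BMP-branch targets whose promoters are printed above, encode dominant inhibitors of basic helix-loop-helix transcription factors. Id2 read 9.13 to 9.52 (median 9.24) in male knockouts, against 8.73, 8.87, 8.63, 8.64 and 8.80 in female knockouts. Male controls read 9.11 to 9.36 (median 9.30), against 8.87, 8.89, 8.78, 8.68 and 8.99 in female controls. The sexes did not overlap, and Id2 was higher in males by 0.54 in knockouts (SE 0.07, adjusted p = 1.28e-05) and by 0.43 in controls (SE 0.07, adjusted p = 0.000271).

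Id3 read 8.75 to 9.10 (median 8.83) in male knockouts, against 8.70, 8.67, 8.59, 8.56 and 8.61 in female knockouts. Male controls read 8.85 to 9.11 (median 8.91), against 8.34, 8.58, 8.64, 8.67 and 8.66 in female controls. All male arrays exceeded the female arrays of their genotype, with a change of 0.24 in knockouts (SE 0.07, adjusted p = 0.0286) and 0.37 in controls (SE 0.07, adjusted p = 0.000738). The knockout call was lost without male knockout 1, 4 or 6 or female knockout 3, 4 or 5 (0.20 to 0.24, adjusted p of 0.0517 to 0.0753), and with median-centred arrays (0.26, adjusted p = 0.0769).

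Id1, the Id gene most often used as a BMP readout, was not called between the sexes. It averaged 10.02 ± 0.09 in male knockouts and 10.10 ± 0.08 in female knockouts, a change of -0.08 (95% interval -0.19 to 0.04), and 10.13 ± 0.08 in male controls and 10.11 ± 0.12 in female controls, a change of 0.02 (95% interval -0.10 to 0.14). These intervals do not reach the changes of Id2. Id4, Smad6 and Smad7 were not called, with changes of -0.17 to 0.08. The lowest was that of Smad7, an inhibitory SMAD, in controls (adjusted p = 0.144).

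After Sox9 deletion, Bmp3 was the only gene of the list that was called. In males 1 of 47 genes was called, where 0.199% of all genes were, and in females 0 of 47, where 0.0315% of all genes were, although 2 genes, Bmp3 and Acvr1, had an unadjusted p under 0.05 with limma in females, as did 5.46% of all genes. Averaged over the sexes 1 of 47 was called, where 0.247% of all genes were. The median change of the 47 genes was 0.00 in males and -0.02 in females, against 0.01 for all genes in both. In males 5 genes had an unadjusted p under 0.05, Bmp3, Acvr1b, Bmp5, Bmp1 and Ltbp1, where 6.27% of all genes did.

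Bmp3 read 7.78, 7.53, 7.73, 7.97, 7.66 and 7.32 in male knockouts, against 7.10, 7.23, 7.13, 7.18, 7.19 and 7.08 in male controls. The groups did not overlap, which was so for 0.42% of all genes. The knockout level was 1.43-fold higher (log2 fold change 0.51, SE 0.09, adjusted p = 0.00529). In females it read 7.78, 7.81, 8.18, 8.09 and 7.75 in knockouts, against 7.49, 7.47, 7.66, 7.55 and 7.57 in controls, again without overlap, as for 1.39% of all genes. The female change of 0.38 (SE 0.09, unadjusted p = 0.000614) did not pass over all genes (adjusted p = 0.418). Averaged over the sexes the change was 0.44 (SE 0.06, adjusted p = 0.000638), and neither this call nor the male one was lost under any of 31 alternatives.

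Acvr1b encodes ALK4, the type I receptor of activins. It read 8.53, 8.39, 8.26, 8.37, 8.31 and 8.47 in male knockouts, against 8.64, 8.70, 8.66, 8.53, 8.47 and 8.77 in male controls, and the groups overlapped. Its change was -0.24 in males (SE 0.05, adjusted p = 0.081), -0.11 in females (SE 0.06, adjusted p = 0.932) and -0.18 averaged over the sexes (SE 0.04, adjusted p = 0.0754). It was called in males without male knockout 1 or male control 5 (-0.27, adjusted p of 0.0297 to 0.0311), and on average without either or without female knockout 1 (-0.19, adjusted p of 0.0298 to 0.0434). Male control 6 gave the highest control value, and without it the change was -0.21 in males (adjusted p = 0.222) and -0.16 on average (adjusted p = 0.132).

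Other small p-values did not pass the adjustment. Bmp5 averaged 5.43 ± 0.12 in male knockouts and 5.18 ± 0.21 in male controls (log2 fold change 0.25, adjusted p = 0.624), close to the array medians. Ltbp1, which encodes a latent TGF-beta binding protein, averaged 7.48 ± 0.14 in male knockouts and 7.74 ± 0.27 in male controls (-0.25, adjusted p = 0.677). Bmp1 averaged 8.54 ± 0.04 in male knockouts and 8.66 ± 0.10 in male controls (-0.12, adjusted p = 0.651). Without male control 6 the Bmp1 change was -0.08 (adjusted p = 0.861). Acvr1 averaged 7.41 ± 0.09 in female knockouts and 7.52 ± 0.06 in female controls (-0.11, adjusted p = 0.871). Averaged over the sexes, Bmp5 had a log2 fold change of 0.18 (adjusted p = 0.484) and Ltbp1 one of -0.17 (adjusted p = 0.621), values given without a call.

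**Figure D3:**
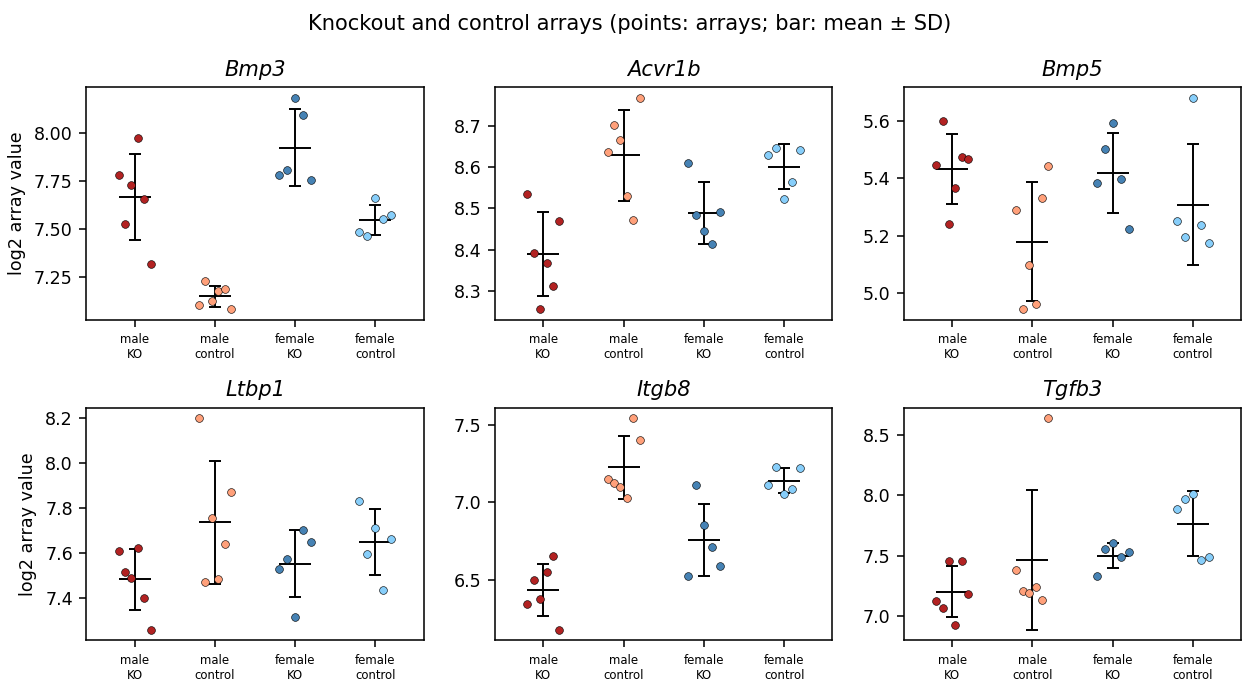
Log2 values of each array, by group, with mean and SD, for Bmp3, Acvr1b, Bmp5, Ltbp1, the integrin gene Itgb8 and Tgfb3. Knockout arrays lie above control arrays for Bmp3 in both sexes, and male control 6 at 8.64 stands alone for Tgfb3.

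The remaining 42 genes in males had changes of -0.26 to 0.13 with unadjusted p of at least 0.05, and the remaining 45 in females -0.26 to 0.24. Both lowest values were those of Tgfb3, which in males moved to -0.03 without male control 6. The widest 95% interval reached 0.38 log2 units to each side in males and 0.42 in females, and the median one 0.14 and 0.15. Bmp4 had a log2 fold change of 0.01 in males (95% interval -0.16 to 0.18), or 0.09 without male control 6, and 0.12 in females (-0.06 to 0.30). Nog had one of -0.05 in males (-0.22 to 0.11) and 0.06 in females (-0.12 to 0.25). Id1, Id2 and Id3 had log2 fold changes of -0.11, 0.01 and -0.09 in males and -0.01, -0.11 and 0.05 in females. The mean of 7 urothelial markers had a median of 10.37 in female knockouts and 9.83 in female controls, and that of 8 immune markers 6.24 and 6.12. All 7 urothelial markers had positive changes in females, 4 of them at an unadjusted p under 0.05, as had all 7 tested immune markers, 1 of them at that level, and 0 of these 14 passed the adjustment with limma, as only 6 of 19050 genes did. The part of these markers in the female values was not tested.

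**Figure D4:**
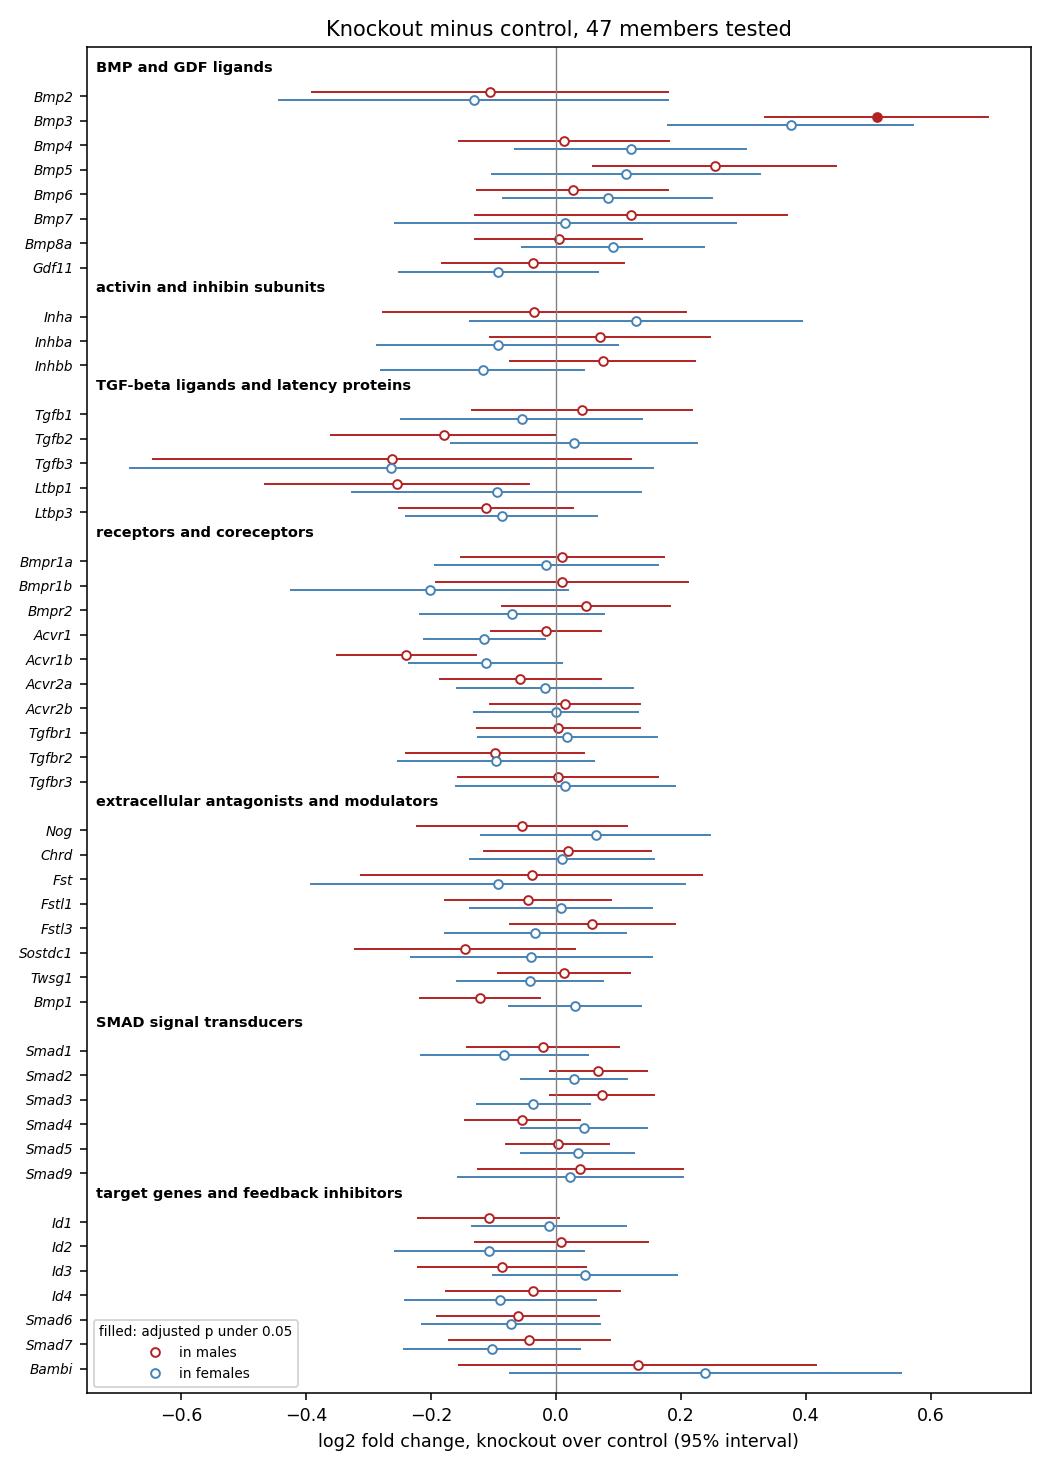
Knockout over control log2 fold changes with 95% intervals for the 47 tested genes, in males (red) and in females (blue), grouped by role, with filled points where the adjusted p was under 0.05. The male change of Bmp3 at 0.51 is the only filled point, and nearly all others lie within 0.3 of 0.

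The test of whether the knockout effect differed between the sexes called 0 of the 47 genes with limma, where 0.00525% of all genes were called. At an unadjusted p under 0.05 it gave 1, Bmp1 (-0.15, SE 0.07, unadjusted p = 0.0382, adjusted p = 0.997), against 4.04% of all genes. For Bmp3 the male minus the female effect was 0.14 (SE 0.13, adjusted p = 0.997). The differences between the 47 effects ran from -0.21 to 0.21, and their median 95% interval reached 0.21 to each side. The same test covers whether a sex difference was larger in knockouts than in controls, and so for none of Bmp1, Fstl1, Ltbp3, Nog, Bmp3, Fstl3, Smad3 and Tgfb2, each called in 1 genotype, was that difference called.

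A further list of 70 pathway genes, which held latency proteins, activators, further antagonists and SMAD regulators, had 55 genes tested. Between the sexes 8 of 55 were called in knockouts, 2 higher and 6 lower in males, and 9 of 55 in controls, 2 higher and 7 lower. These were 14.5% and 16.4% of the list, where 7.19% and 6.94% of all genes were called. Called in both were 7. Higher in males were Fstl4, which encodes a follistatin-like protein, and Neo1, which encodes the neogenin receptor of the RGM proteins. Lower in males were Pmepa1, Skil, Tgif1, Ltbp2 and Rgma. Furin, a convertase that cleaves the ligand precursors, was called in knockouts, and Dcn and Sik1 in controls. The difference between the genotypes was called for none of the 55 (0 of 55 with limma, and 3 at an unadjusted p under 0.05, where 4.04% of all genes were).

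Pmepa1, a TGF-beta target whose product sequesters receptor-activated SMADs, read 8.44 to 8.76 (median 8.59) in male knockouts, against 9.28, 9.56, 9.36, 9.40 and 9.41 in female knockouts. Male controls read 8.54 to 8.79 (median 8.67), against 9.57, 9.52, 9.46, 9.62 and 9.75 in female controls. The sexes were far apart, at -0.81 in knockouts (SE 0.06, adjusted p = 1.04e-08) and -0.93 in controls (SE 0.06, adjusted p = 9.67e-10). Skil, which encodes the SMAD corepressor SnoN and is itself a TGF-beta target, read 7.74 to 8.29 (median 7.91) in male knockouts, against 8.46, 8.48, 8.65, 8.62 and 8.64 in female knockouts. Male controls read 7.73 to 8.10 (median 7.96), against 8.63, 8.78, 8.49, 8.55 and 8.54 in female controls. There was no overlap, with changes of -0.62 (SE 0.08, adjusted p = 2.2e-05) and -0.67 (SE 0.08, adjusted p = 1.01e-05). Tgif1, which encodes another SMAD corepressor, was lower in males, with log2 fold changes of -0.31 in knockouts (adjusted p = 0.000414) and -0.29 in controls (adjusted p = 0.000833).

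Ltbp2, whose product binds the matrix but not latent TGF-beta, was lower in males, with log2 fold changes of -0.55 in knockouts (adjusted p = 1.4e-06) and -0.67 in controls (adjusted p = 7.84e-08). Rgma, a BMP coreceptor gene, was lower, with log2 fold changes of -0.46 (adjusted p = 3.22e-05) and -0.31 (adjusted p = 0.00249). Fstl4 was higher in males by 0.73 (adjusted p = 3.05e-05) and 0.81 (adjusted p = 9.18e-06). Neo1 was higher by 0.17 (adjusted p = 0.0475) and 0.20 (adjusted p = 0.0156), calls near the threshold. The first was lost without male control 3, 5 or 6, male knockout 1, 2, 4, 5 or 6, female control 1, 2 or 3 or female knockout 1, 2 or 3 (0.14 to 0.17, adjusted p of 0.0537 to 0.144), and the second without female control 5 (0.17, adjusted p = 0.0598). Median centring and a fit of the groups compared alone ended both calls, and no filter the first (adjusted p of 0.0567 to 0.181). Furin (-0.18 in knockouts, adjusted p = 0.036) was lost without male knockout 2, 3, 5 or 6 or female knockout 1, 2 or 4 (-0.18 to -0.15, adjusted p of 0.0647 to 0.125), and under median centring, no filter and a fit of the knockout arrays alone (adjusted p of 0.0553 to 0.165). Dcn (-0.36 in controls, adjusted p = 0.0262) was lost without male control 1, 3 or 4 or any 1 of female controls 2 to 5 (-0.36 to -0.31, adjusted p of 0.0503 to 0.0671), and under median centring (adjusted p = 0.0693). Sik1, a TGF-beta induced kinase gene (-0.24 in controls, adjusted p = 0.0283), was lost without male control 1, 4 or 6 or female control 1, 2 or 5 (-0.23 to -0.22, adjusted p of 0.052 to 0.0837), and under median centring (adjusted p = 0.126). Dcn, which encodes decorin, is also 1 of the mesenchymal markers.

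**Figure D5:**
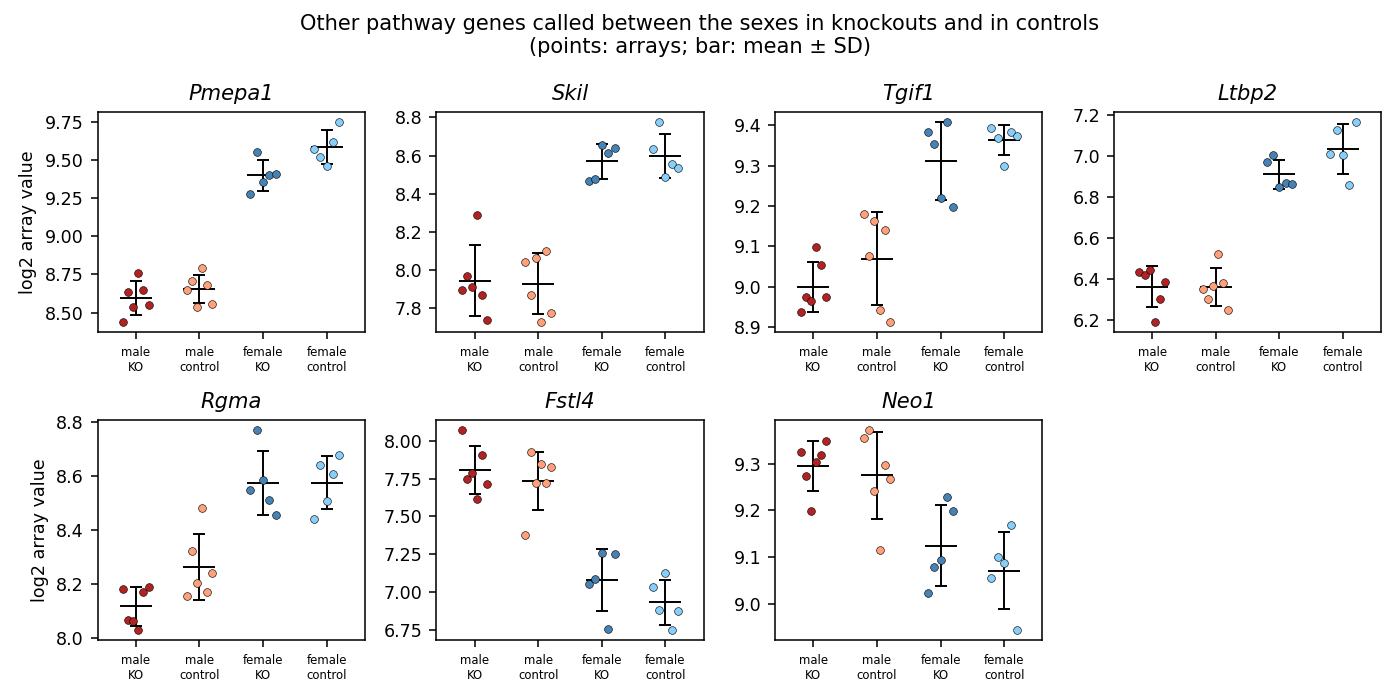
Log2 values of each array, by group, with mean and SD, for the 7 further pathway genes called between the sexes in both genotypes. Pmepa1, Skil, Tgif1, Ltbp2 and Rgma lie lower and Fstl4 and Neo1 higher in males, with male control 1 at 7.38 the lowest male array for Fstl4.

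After Sox9 deletion, 1 of the 55 was called in males and on average, where 0.199% and 0.247% of all genes were, and 0 in females, where 0.0315% were. At an unadjusted p under 0.05 with limma there were 7 in males, all lower in knockouts, where 6.27% of all genes passed, and 4 in females, also all lower, where 5.46% passed. Over all 19050 genes, 551 were lower and 644 higher at that level in males, and 457 lower and 584 higher in females. Among the 7 in males were Thbs1 and Tgfbi, for which male control 6 was the highest male control. It read 8.77 for Thbs1 against 7.68 to 8.26 in the others, and 7.57 for Tgfbi against 6.29 to 6.82. The log2 fold change of Thbs1 was -0.59 with that array and -0.45 without it. That of Tgfbi was -0.54 with it and -0.37 without it, and neither gene was called either way. The called gene was Itgb8, which encodes the beta subunit of an integrin that activates latent TGF-beta. It read 6.34, 6.49, 6.37, 6.55, 6.66 and 6.17 in male knockouts, against 7.15, 7.12, 7.10, 7.03, 7.55 and 7.41 in male controls. The groups did not overlap, and the knockout level was 1.74-fold lower (log2 fold change -0.80, SE 0.10, adjusted p = 0.000256). In females it read 6.52, 7.11, 6.85, 6.71 and 6.59 in knockouts, against 7.11, 7.23, 7.05, 7.08 and 7.22 in controls, a change of -0.38 that was not called (SE 0.11, adjusted p = 0.595). The male minus the female effect was -0.41 (SE 0.15, unadjusted p = 0.0093, adjusted p = 0.997).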

How the data were processed

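The authors deposited 1 table of log2 values for 72688 probe sets on 22 arrays. Their range and distribution show a log2 scale. Per the labels' protocols, trypsin and collagenase were used to free the epithelium from mesenchyme, bladder and urethral epithelium was discarded, and biotin-labelled RNA was hybridised to Affymetrix whole-transcript arrays. How the authors corrected background, normalized and summarized the arrays, and on which build, is not given in the sources used here. The values were used as they stood. The number of arrays limits the precision.

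Probe sets were named from the platform annotation, where 30604 probe sets carried 1 symbol and 2146 several. A further 33185 transcript clusters were not listed there, and 827 symbols were updated through gene identifiers. Kept were single-symbol probe sets above the array median of transcript clusters on at least 5 arrays (19219), and the brightest per gene (19050 genes). limma 3.58.1 in R 4.3.3 was fitted to 4 group means over all 22 arrays with default eBayes. A gene was called at a two-sided p under 0.05 after Benjamini-Hochberg adjustment across the 19050 genes. Sox9 was also tested by exact permutation within each sex. Changes are differences of mean log2 values, and overlap compares single arrays. The limma fit was also run on simulated data for knockout against control in each sex and for males against females in each genotype. The average over the sexes, the difference of the effects, the permutation test and the alternatives were not simulated. No 2 arrays were identical.

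The members, the further pathway list and the marker lists were chosen with earlier results of these data known. All arrays were given for members called in any comparison and for the member of smallest p of each role. Other members were given by counts and ranges, except where their unadjusted p was under 0.05, and further pathway genes were named where called. Replicate numbers did not pair the arrays: 21 same-numbered pairs correlated at -0.21 to 0.25 after removal of group means, 3 of them over 0.1. Alternatives were quantile normalization, median centring, no filter or a filter at the 75th percentile, trend and robust options in eBayes, averaged probe sets, fits on the groups compared alone, the replicate block, array weights, and leaving out each array. Promoters came from RefSeq tables of build GRCm38.p6. Plots used matplotlib 3.10.9 (Python 3.11.15).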

Additional observations from a re-analysis of the deposited data

Results flagged for a closer look

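In groups of 5 or 6 arrays, 24 of 304 tested (7.89%) had an array farther from the others than Dixon's 95% limit, where chance gives about 1 in 20. Male control 6 held 6 of them. It was the highest of its group for Tgfb3 (8.64), Fst (5.66), Tgfbr2 (8.15) and the means of the mesenchymal (7.00), smooth muscle (7.06) and endothelial (5.61) markers.

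Among the male knockouts, Acvr1 stood high on male knockout 2 (7.34), Bambi on male knockout 4 (9.55) and Bmp2 on male knockout 1 (7.44), and Bmp4 stood low on male knockout 2 (6.66). Among the male controls, Chrd (6.29) and Grem1 (4.60) stood high and Id1 (9.98) low on male control 4, Ltbp3 stood high on male control 3 (8.32), and Fstl4 low on male control 1 (7.38).

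In female knockouts, Fstl3 stood high on female knockout 2 (7.34) and Zfyve9, which encodes a SMAD anchor, low on female knockout 1 (7.27). In female controls, Bmp5 stood high on female control 3 (5.68), Twsg1 on female control 4 (9.88) and the blood marker mean on female control 5 (5.43). Low values there were those of Bmp7 on female control 2 (8.16), Id3 (8.34) and Amh (5.54) on female control 1, and Tgif1 on female control 3 (9.30). The cause of these values was not tested.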

How the results depend on the processing

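No called result changed sign in any alternative run. Of the members called after Sox9 deletion, 2 in place of 1 were called on average under quantile normalization, the 75th percentile filter and array weights, the added gene being Acvr1b each time. Median centring gave 9 members between the sexes in knockouts and 11 in controls, in place of 15 in each. The shares of all genes called under these settings are not given here. Leaving out each array in turn gave 1 to 2 members in males after Sox9 deletion, where 27 to 49 of all genes were called. On average it gave 1 to 2, where 41 to 56 were, and in females 0 to 0, where 2 to 8 were. Between the sexes it gave 11 to 16 members in knockouts, where 1073 to 1434 of all genes were called. In controls it gave 11 to 17, where 1006 to 1694 were. For the difference of the effects it gave 0 to 0, where 0 to 2 were. Sox9 itself kept changes of -1.13 to -1.02 in males, -1.03 to -0.96 in females and -1.06 to -1.01 on average. The 75th percentile filter left out dim genes such as Bmp5, Bmp6, Fst and Nog. The cause of these shifts was not tested, and values near the array median, as for Fst in males, limit what can be read from them.

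The replicate number as a block, which the arrays did not bear out as a pairing (2 of 21 pairs correlated best with their own number), gave 2 members in males and 2 on average after Sox9 deletion, with Acvr1b added to Bmp3. Between the sexes it left Id3 (0.23, adjusted p = 0.0917), Nog (-0.26, adjusted p = 0.13), Furin (-0.17, adjusted p = 0.0824) and Neo1 (0.16, adjusted p = 0.136) uncalled in knockouts and Bmp6 (-0.28, adjusted p = 0.077), Smad5 (-0.14, adjusted p = 0.101) and Neo1 (0.20, adjusted p = 0.0607) in controls, and called Fstl1 in controls (-0.24, adjusted p = 0.025).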
